A study of Solanum lycopersicum with 8 samples.

Results

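ODC encodes ornithine decarboxylase and adc1 an arginine decarboxylase, the enzymes that open the routes to putrescine in plants. All probe sets that the platform annotation gives these symbols were taken, which made 2 of the 688 genes with a symbol and 5 of the 8404 tested probe sets, 1 for ODC and 4 for adc1. The genes were selected on their NPA effect at 6 h and its change by 12 h in these same arrays. Together they fix the effect at 12 h, and the difference between harvests in NPA plants uses the same NPA arrays, so for ODC and adc1 all of these are described without a test. Transcripts came from leaves of tomato, cultivar Summer sweet, sprayed with NPA, or with water as the control. NPA, neutralized phosphorous acid, is the acid at 1 g per litre, brought to pH 6.3 with potassium hydroxide. The 4 groups, of 2 Affymetrix Tomato Genome arrays each, were NPA 12 h, water 12 h, NPA 6 h and water 6 h after spraying. Each array carried a pool of leaf RNA from 5 plants, and its partner in the group belongs to a second run of the whole experiment. No untreated plants or plants harvested before spraying were analysed here, so that a time after spraying and an hour of the day cannot be told apart.

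Putrescine is the diamine from which spermidine and spermine are built. ODC makes it from ornithine in a single step, whereas arginine decarboxylase makes agmatine from arginine, which other enzymes turn into putrescine. Spermidine and spermine arise when aminopropyl groups from decarboxylated S-adenosylmethionine are added, and the same S-adenosylmethionine feeds ethylene synthesis. In leaves polyamines are known from growth, salt and drought responses and defence, and are often coupled to hydroxycinnamic acids.

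Values are log2 expression values as the authors deposited them, and differences are between means of log2 values, with a standard error (SE) from limma. Over all probe sets the median NPA effect was -0.03 at 12 h and -0.01 at 6 h, and the 2 arrays of a group correlated between 0.968 and 0.987. The leaf markers PSBO, LOC543978 (psaD), CAB6A, CAB4 and CAB5 lay between percentiles 88.9 and 99.9 of mean signal. MTS1 of glandular trichomes lay at percentile 0.0952. Psy1, TDR6 and TIP, listed as fruit, flower and root markers, stood at percentiles 45.2 and 7.75, 29.9 and 50.8, and how far other tissues were present was not tested. MTS1 averaged 5.46 in NPA plants and 3.95 in water plants at 6 h, and its part in the results below was not tested. In whole leaves, fewer cells of a type and less RNA per cell cannot be told apart.

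The first question was how the entry enzymes stood under NPA 6 h after spraying. ODC (probe set Les.3525.1.S1_at) read 10.32 and 10.25 on the NPA arrays, against 8.60 and 8.59 on the water arrays. The arrays of each group lay within 0.07 of each other, and the groups were far apart. The difference was 1.69 (SE 0.25), a 3.23-fold level in NPA plants, with 1.72 in repeat 1 and 1.66 in repeat 2. It stood at rank 113 of the 8404 probe sets, counted from the highest NPA effect.

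The adc1 probe sets stood higher under NPA at 6 h as well, by less. Les.3358.1.S1_at read 11.03 and 11.05 in NPA plants, against 9.99 and 10.12 in water plants. Les.3358.1.S1_a_at, designed from the same sequence entry, read 10.69 and 10.45 in NPA plants, against 9.71 and 9.48 in water plants. Both showed nearly a doubling, with differences of 0.985 (1.98-fold, SE 0.16) and 0.975 (1.97-fold, SE 0.23). Les.3358.2.S1_at read 11.15 and 11.22 in NPA plants, against 10.13 and 10.38 in water plants. Les.3358.3.S1_at read 8.68 and 9.0 in NPA plants, against 8.24 and 8.33 in water plants. Their differences were 0.93 (1.91-fold, SE 0.18) and 0.555 (1.47-fold, SE 0.20), so that the last probe set gave the smallest change. In repeat 1 the 4 differences ran from 0.44 to 1.04, and in repeat 2 from 0.67 to 0.97. All 5 probe sets had NPA arrays above both water arrays at 6 h, which 21.9% of all tested probe sets also had. At an adjusted p under 0.05, 0.143% of all probe sets were higher at 6 h. The 4 adc1 probe sets read 1 gene on the same arrays and are not separate evidence.

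**Figure D1:**
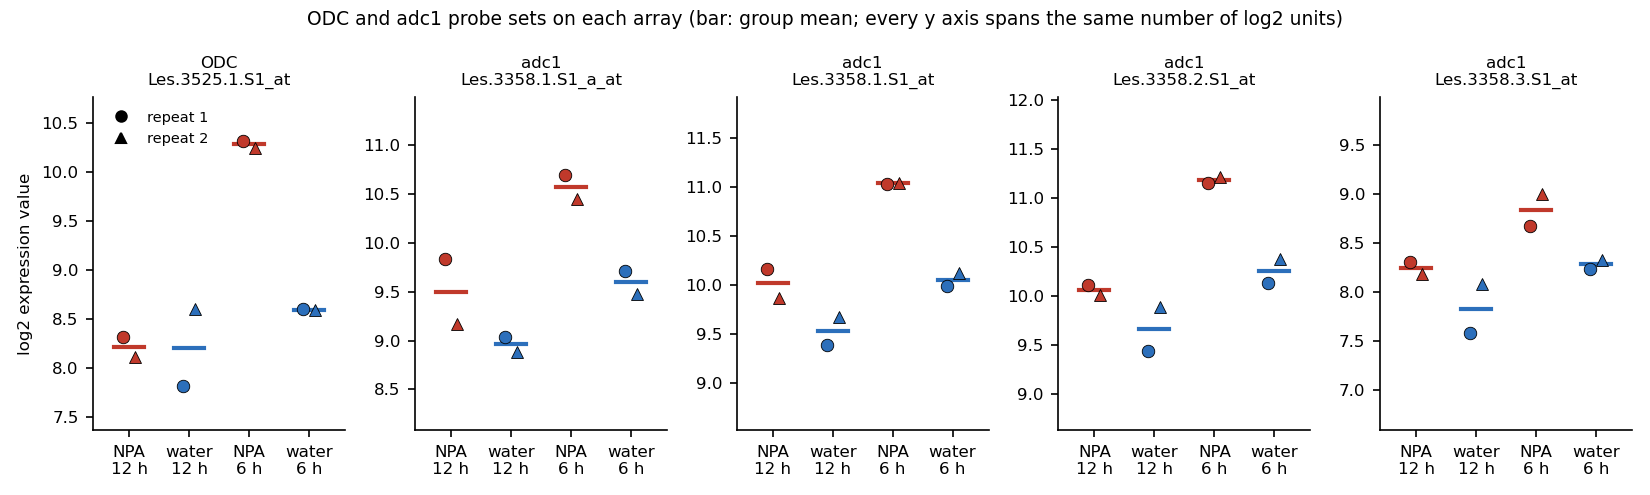
Log2 expression value (y axis) of ODC and of the 4 adc1 probe sets on each of the 8 arrays, by group (x axis, red NPA, blue water). Circles are repeat 1, triangles repeat 2, and bars are group means. ODC read 10.32 and 10.25 in NPA plants at 6 h and no more than 8.60 in the other groups, while each adc1 probe set also had its highest values there.

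At 6 h the ODC difference exceeded that of each adc1 probe set in both repeats. The excess ran from 0.68 to 1.28 over the 4 probe sets and the 2 repeats, as a log2 difference between differences. At 12 h the order was turned, with an excess of -0.78 to -0.16. The adc1 probe sets, which read 1 gene, themselves gave differences of 0.555 to 0.985 at 6 h. The sizes are thus those of probe sets, and whether the transcripts differ as much was not tested. These comparisons rest on the values that chose the genes and were not tested.

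The second question was what remained 12 h after spraying. ODC read 8.32 and 8.11 in NPA plants, against 7.81 and 8.60 in water plants. The NPA arrays lay between the water arrays. The difference was 0.01 (SE 0.25), with 0.51 in repeat 1 and -0.49 in repeat 2. The first water array was the lowest of the 4, and without it the ODC difference was -0.385. Without the first NPA array it was -0.095.

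The adc1 probe sets read slightly above water at 12 h in these arrays. Les.3358.1.S1_at read 10.17 and 9.87 in NPA plants, against 9.39 and 9.68 in water plants. Les.3358.1.S1_a_at read 9.83 and 9.17 in NPA plants, against 9.04 and 8.88 in water plants. Les.3358.2.S1_at read 10.11 and 10.01 in NPA plants, against 9.44 and 9.89 in water plants. Les.3358.3.S1_at read 8.31 and 8.18 in NPA plants, against 7.58 and 8.08 in water plants. The groups did not overlap for any of the 4, as was the case in the same direction for 17.1% of all probe sets. The differences were between 0.395 and 0.54 (1.31- to 1.45-fold, SE 0.16 to 0.23), and nothing is read from the count that did not overlap.

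The repeats differed in this remainder. In repeat 1 the adc1 differences at 12 h ran from 0.67 to 0.79, and in repeat 2 from 0.10 to 0.29. Over all probe sets the median NPA effect at 12 h was -0.04 in repeat 1 and -0.02 in repeat 2. Without the first NPA 12 h array the difference of Les.3358.1.S1_a_at was 0.21, and without the first water 12 h array those of Les.3358.2.S1_at and Les.3358.3.S1_at were 0.17 and 0.165.

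**Figure D2:**
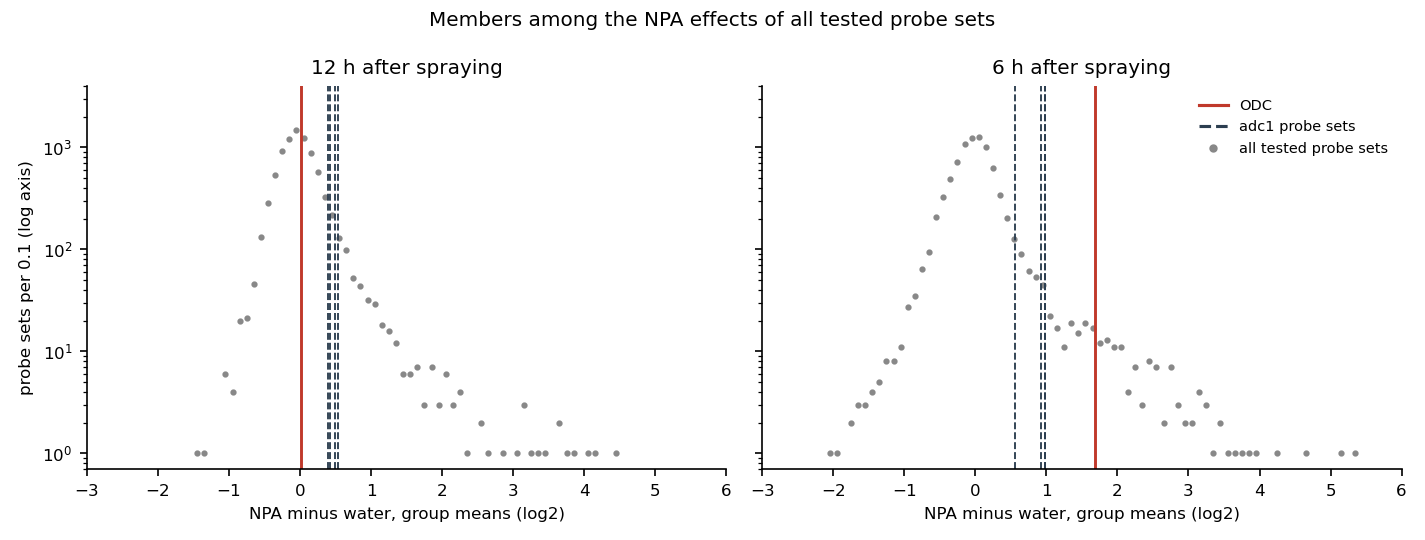
Number of probe sets per 0.1 of NPA effect (grey points, log axis, bins with no probe set left out) against the effect in group means, log2, at 12 h and at 6 h. The red line is ODC, at 0.01 at 12 h and 1.69 at 6 h, and the dashed lines are the adc1 probe sets, at 0.395 to 0.54 at 12 h and 0.555 to 0.985 at 6 h.

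The NPA effect of ODC was smaller at 12 h than at 6 h, with a 12 h effect minus 6 h effect of -1.68 (SE 0.35), at -1.21 in repeat 1 and -2.15 in repeat 2. It stood at rank 30 of the 8404 probe sets, counted from the lowest. For adc1 the same quantity was -0.435 for Les.3358.1.S1_a_at, -0.50 for Les.3358.1.S1_at, -0.535 for Les.3358.2.S1_at and -0.14 for Les.3358.3.S1_at. It was negative in both repeats for the first 3 of these, and 0.29 and -0.57 in repeats 1 and 2 for Les.3358.3.S1_at. Of all probe sets 0% passed the limma test of this quantity, with or without the block, and 1123 had an unadjusted p under 0.05 without it.

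The third question was how the transcripts changed from one harvest to the next within a treatment. In NPA plants the 12 h minus 6 h difference of ODC was -2.07 (SE 0.25), so that its level at 6 h was 4.2 times that at 12 h. The 12 h arrays read 8.32 and 8.11, against 10.32 and 10.25 at 6 h, and the change was -2.0 in repeat 1 and -2.14 in repeat 2. The NPA 6 h arrays are also those for which the genes were chosen, so the values in NPA plants describe these arrays and are not tested.

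The adc1 probe sets were lower at 12 h in NPA plants too. Les.3358.2.S1_at differed by -1.125 (SE 0.18), Les.3358.1.S1_a_at by -1.07 (SE 0.23) and Les.3358.1.S1_at by -1.02 (SE 0.16). These amount to levels at 6 h of 2.18, 2.1 and 2.03 times those at 12 h. Les.3358.3.S1_at stood at -0.595 (SE 0.20). In repeat 1 the adc1 differences ran from -1.04 to -0.37, and in repeat 2 from -1.28 to -0.82. For all 5 probe sets the 12 h arrays lay below both 6 h arrays, as for 29.3% of all probe sets, and the choice of the genes favoured this.

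Marker genes also differed between the harvests. CAB5, a chlorophyll-binding protein of leaves, averaged 8.39 at 12 h and 13.71 at 6 h in NPA plants, and 9.25 at 12 h and 13.8 at 6 h in water plants. CAB4 and CAB6A, of the same family, averaged 11.33 and 12.15 at 12 h and 13.88 and 14.09 at 6 h in NPA plants. In water plants they averaged 11.58 and 12.30 at 12 h and 13.90 and 14.15 at 6 h. PSBO and LOC543978, near the top of the scale, lay between 13.88 and 14.0 in every group. The Psy1 probe set with the higher percentile averaged 10.22 at 12 h and 7.03 at 6 h in NPA plants, and 10.21 at 12 h and 6.76 at 6 h in water plants. The other averaged 6.54 at 12 h and 5.60 at 6 h in NPA plants, and 6.04 at 12 h and 5.97 at 6 h in water plants. The part of these shifts in the changes of ODC and adc1 was not tested.

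In water plants ODC read 7.81 and 8.60 at 12 h, against 8.60 and 8.59 at 6 h. The difference of -0.39 (SE 0.25) came from repeat 1, at -0.79, whereas repeat 2 stood at 0.01. Without the second water 12 h array it was -0.785, and without the first 0.005. The arrays of both water groups entered the choice of ODC, so these values are described without a test.

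All adc1 probe sets were lower at 12 h in the water plants of both repeats. Les.3358.1.S1_at read 9.39 and 9.68 at 12 h, against 9.99 and 10.12 at 6 h. The differences were -0.52 for Les.3358.1.S1_at (adjusted p = 0.0597, and 0.0444 with the block), -0.59 for Les.3358.2.S1_at (0.0587 and 0.0276) and -0.635 for Les.3358.1.S1_a_at (0.0974 and 0.0206). Les.3358.3.S1_at stood at -0.455 (0.147 and 0.0769). The water 6 h arrays also entered the choice of the genes, so these p-values are not fully independent of it. None of the 5 probe sets passed the limma test here, 3 had an unadjusted p under 0.05, as did 37.5% of all probe sets, and 3 passed with the block, against 10.5% of all probe sets called lower, and 17.2% with the block. The arrays of the 2 harvests did not overlap for the 4 adc1 probe sets, as for 31.4% of all probe sets in this direction. Les.3358.1.S1_a_at passed without either NPA 12 h array (0.0403), and Les.3358.2.S1_at without the second water 12 h array (-0.815, 0.0485). A lower adc1 level at 12 h was thus measured under both treatments, with differences of -1.125 to -0.595 in NPA plants and -0.635 to -0.455 in water plants. ODC differed by -2.07 in NPA plants and -0.39 in water plants.

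**Figure D3:**
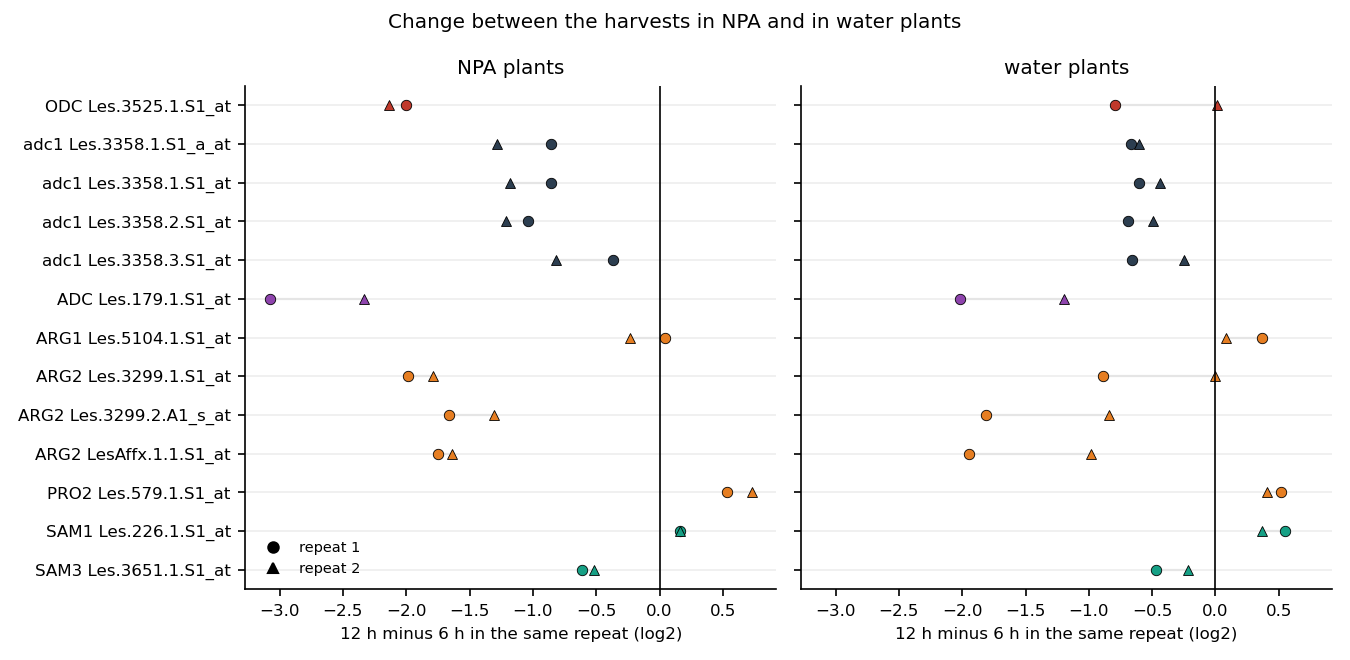
Change from 6 h to 12 h within a repeat (x axis, log2, 12 h minus 6 h) for ODC, adc1, the other arginine decarboxylase gene ADC and probe sets of arginine, proline and S-adenosylmethionine enzymes, in NPA plants and in water plants. Circles are repeat 1 and triangles repeat 2. ODC lies at -2.0 and -2.14 in NPA plants, and at -0.79 and 0.01 in water plants.

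Ordered by group mean, ODC was highest in NPA 6 h plants (10.29), then in water 6 h (8.60), NPA 12 h (8.22) and water 12 h plants (8.21). The arrays of the last pair overlapped, and those of the other neighbours did not. All adc1 probe sets had the same order. Water 6 h and NPA 12 h arrays overlapped for 3 of them, and for Les.3358.2.S1_at they did not, with 10.13 the lowest water 6 h value and 10.11 the highest NPA 12 h value. Over the 8 arrays the adc1 probe sets correlated with each other at 0.846 to 0.987 and with ODC at 0.875 to 0.957. These coefficients share the 4 groups and the arrays and are given as a description.

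The named genes with the pattern most like ODC over the 8 arrays were sought among 748 probe sets with a symbol. They were AOS, an allene oxide synthase that acts in jasmonate formation (Pearson r 0.964), SPM1 (0.962), LOC544223 (0.961), MKK2, a MAP kinase kinase (0.959), and DHQS (0.951). Of the 748, 4 were closer to ODC than adc1 Les.3358.2.S1_at was, while 22 were closer than Les.3358.1.S1_a_at. ODC and adc1 were both chosen on their NPA effects in these arrays. The choice favoured likeness between them, and nothing is read from these counts.

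For adc1 the most alike genes differed between its probe sets. Les.3358.1.S1_at was closest to AOS (0.974), hqt (0.959), LOC544223 (0.959), LOC544153 (0.953) and an ARG2 probe set (0.951). Les.3358.2.S1_at was closest to LOC544223 (0.985), hqt (0.978), TAL (0.968), AOS (0.962) and the same ARG2 probe set (0.955). Les.3358.3.S1_at was closest to both the ARG2 probe sets LesAffx.1.1.S1_at (0.965) and Les.3299.2.A1_s_at (0.953), hqt (0.939), LOC544223 (0.930) and LAPA1 (0.927). Les.3358.1.S1_a_at shared only LOC544153 (0.962) with any of these lists, beside BI-1 (0.973), FDH (0.959), CNX61.0 (0.957) and SAR2 (0.956). ARG2 is an arginase, which makes ornithine from arginine, and LAPA1 a leucine aminopeptidase known from wounded leaves.

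The rest of the pathway was followed through 6 lists, matched by symbol and synonym, of which the list of spermidine and spermine synthases matched no gene. The other 5 held 24 probe sets of 20 genes. These lists, too, were written with results of these arrays known. At 6 h none of the 24 passed the limma test, against 0.143% of all probe sets called higher, and 2 rose with the repeat as a block, against 0.964%. An unadjusted p under 0.05 was found for 5 of them (20.8%), against 15.7% of all probe sets. The 3 ARG2 probe sets were among these 5, and probe sets of 1 gene on the same arrays are not separate evidence. Their median difference was 0.20 at 6 h, beside -0.01 over all probe sets, and 20 of 24 (83.3%) were above water, against 48.6% of all probe sets. At 12 h none passed with or without the block, against 0.0119% of all probe sets called higher, and 0% with the block. An unadjusted p under 0.05 was found for 4 of them (16.7%), the 3 ARG2 probe sets again included, against 9.65% of all probe sets. The median was -0.02 beside -0.03 over all probe sets, and 11 (45.8%) were above water, against 44.7% of all probe sets.

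A further arginine decarboxylase gene, ADC (Les.179.1.S1_at), read 12.56 and 12.61 in NPA plants at 6 h, against 11.97 and 11.85 in water plants. At 12 h it read 9.48 and 10.28 in NPA plants, against 9.95 and 10.65 in water plants. The NPA difference was thus -0.42 at 12 h and 0.675 at 6 h, and neither passed (adjusted p = 0.691 and 0.371). Between the harvests ADC fell by 2.71 in NPA plants (SE 0.31, adjusted p = 0.00334) and by 1.61 in water plants (SE 0.31, adjusted p = 0.0165). In water plants ADC lost this call without the first water 12 h array or either water 6 h array, with adjusted p up to 0.0947. Whether probes for ADC and adc1 read each other's transcripts was not tested.

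Of the enzymes that draw on arginine and ornithine, ARG2 stood out by size in all 3 of its probe sets. LesAffx.1.1.S1_at read 11.85 and 11.88 in NPA plants at 6 h, against 9.62 and 10.17 in water plants, a difference of 1.97 (SE 0.46, adjusted p = 0.137, and 0.058 with the block). Les.3299.2.A1_s_at read 12.49 and 12.31 in NPA plants, against 10.41 and 10.86 in water plants, a difference of 1.765 (adjusted p = 0.142, and 0.0693 with the block). Its suffix marks probes that may read more than 1 gene. Les.3299.1.S1_at read 7.64 and 7.88 in NPA plants, against 5.45 and 5.57 in water plants. Its mean signal was low, at percentile 7.78, against 74.6 for LesAffx.1.1.S1_at and 84.4 for Les.3299.2.A1_s_at. It differed by 2.25 (adjusted p = 0.109) and rose with the block (adjusted p = 0.0278).

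At 12 h the ARG2 differences were 1.74, 1.605 and 0.805 for these probe sets in the same order, with adjusted p from 0.46 to 0.517. The first and second thus stood at 1.74 and 1.605 at 12 h, against 1.97 and 1.765 at 6 h, where ODC had 0.01 at 12 h and 1.69 at 6 h. The third, Les.3299.1.S1_at, had a smaller effect at 12 h, 0.805 against 2.25 at 6 h, a change of -1.445. Whether ARG2 and ODC differ in the change of effect was not tested. The 12 h differences were 2.43, 2.23 and 1.09 in repeat 1, and 1.05, 0.98 and 0.52 in repeat 2. The water 12 h arrays read 7.67, 8.60 and 4.56 in repeat 1, against 9.19, 10.02 and 5.57 in repeat 2. Between the harvests all 3 fell in NPA plants, with changes of -1.695, -1.485 and -1.89 (adjusted p = 0.0389, 0.0467 and 0.0105). In water plants they stood at -1.465, -1.325 and -0.445, and the first and second passed with the block (adjusted p = 0.0252 and 0.0355, against 0.0654 and 0.0715 without it). Without an array the first 2 lost the call in NPA plants in 6 of 8 cases each, those without a water 6 h or any NPA array, with adjusted p up to 0.13 and 0.166. Les.3299.1.S1_at lost it without the second NPA 6 h array (0.0534).

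ARG1, the other arginase gene, differed by -0.155 at 12 h and 0.165 at 6 h and passed nowhere. PRO2, the proline synthesis enzyme that shares glutamate as a precursor, stood within 0.19 of water at both harvests, and rose from 6 h to 12 h in NPA plants by 0.63 (adjusted p = 0.0112) and in water plants by 0.465 (adjusted p = 0.0311). PRO2 lost the call in NPA plants without the second NPA array of either harvest, and in water plants without any 1 of the 4 water arrays, with adjusted p up to 0.0578 and 0.147. PRO1, listed only with the synonym LePro1 and perhaps not a proline gene, stood at -0.15 at 6 h.

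No supplier of S-adenosylmethionine passed the test of the NPA effect. SAM1 and SAM3, S-adenosylmethionine synthetases, and SAHH, which recycles its product, stood at -0.09, -0.025 and -0.02 against water at 12 h and at 0.21, 0.195 and 0.16 at 6 h, with adjusted p of at least 0.502. SAM1 rose in water plants between the harvests, by 0.46 (adjusted p = 0.044), and lost that call on leaving out any 1 of the 8 arrays, with adjusted p up to 0.184. SAM3 was lower at 12 h in both treatments, and passed only with the repeat as a block. It stood at -0.565 in NPA plants (adjusted p = 0.00987, and 0.125 without the block) and -0.345 in water plants (0.0452 and 0.325).

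In ethylene synthesis ACC synthases turn S-adenosylmethionine into ACC, from which ACC oxidases release ethylene. ACO4, an ACC oxidase, stood at 0.135 at 12 h, with an adjusted p = 0.716. Its 6 h difference was 0.865 (adjusted p = 0.0757, and 0.0332 with the block). The 3 ACO6 probe sets lay between -0.275 and -0.05 at 12 h and between -0.105 and 0.09 at 6 h. The ACC synthases ACS6 and ACS1A stood at -0.21 and -0.105 at 12 h and at 0.52 and 0.94 at 6 h (adjusted p = 0.46 and 0.415 at 6 h). In water plants ACO4 rose by 0.405 between the harvests (adjusted p = 0.0444), and ACO6 by 0.595 and 0.505 in 2 of its 3 probe sets (0.0249 and 0.037). ACO4 and the ACO6 probe set at 0.505 lost the call on leaving out any 1 of the 8 arrays (adjusted p up to 0.214 and 0.159), and the one at 0.595 without any 1 of the 4 water arrays (up to 0.121). In NPA plants ACO4 stood at -0.325 (adjusted p = 0.0761, and 0.045 with the block).

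Among genes of breakdown and conjugation, THT1-3, a tyramine hydroxycinnamoyl transferase that makes phenolic amides, had the largest NPA differences of all 24 at both harvests. It read 9.04 and 7.27 in NPA plants at 6 h, against 5.40 and 5.58 in water plants, and at 12 h it read 8.46 and 6.37 in NPA plants, against 5.38 and 5.32 in water plants. The groups did not overlap, and repeat 1 was well above repeat 2 within NPA plants. The differences of 2.065 at 12 h (adjusted p = 0.494) and 2.665 at 6 h (SE 0.77, adjusted p = 0.184) did not pass. THT7-8 stood at 0.845 and THT7-1 at -0.015 at 6 h.

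Genes listed for the GABA shunt, which takes up products of polyamine breakdown, fell between the harvests in both treatments for 2 of 5. GABA-TP2 fell by 1.55 in NPA plants (adjusted p = 0.00104) and fell by 1.435 in water plants (0.00146). For yfe37, whose synonym is GAD3, the changes were -2.21 in NPA plants (0.0045) and -1.975 in water plants (0.00683, and 0.0556 without the first water 6 h array). The gad2 probe set changed by -1.035 in NPA plants (0.0298) and lost the call without any 1 of the 4 NPA arrays (up to 0.125). GABA-TP1 passed nowhere, and GABA-TP3 only in water plants with the block (-0.345, adjusted p = 0.0487, and 0.212 without it). RefSeq synonyms of gad2 and GABA-TP2 include names of steroidal glycoalkaloid genes, so that their place in this list is uncertain. Of the 24 probe sets 1 rose and 7 fell in NPA plants from 6 h to 12 h, against 14.2% and 11.8% of all probe sets, and 5 rose and 3 fell in water plants, against 11.7% and 10.5%. The 7 that fell in NPA plants include the 3 ARG2 probe sets, which are not separate evidence. With the block 9 fell in NPA plants, against 18.7% of all probe sets, and 7 in water plants, against 17.2%. The 8 calls in NPA plants became 5 when NPA 6 h replicate 1 was left out, 3 for NPA 6 h replicate 2, 5 for NPA 12 h replicate 1 and 4 for NPA 12 h replicate 2. The 8 calls in water plants became 1 when water 6 h replicate 1 was left out, 2 for water 6 h replicate 2, 2 for water 12 h replicate 1 and 5 for each of the other arrays.

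**Figure D4:**
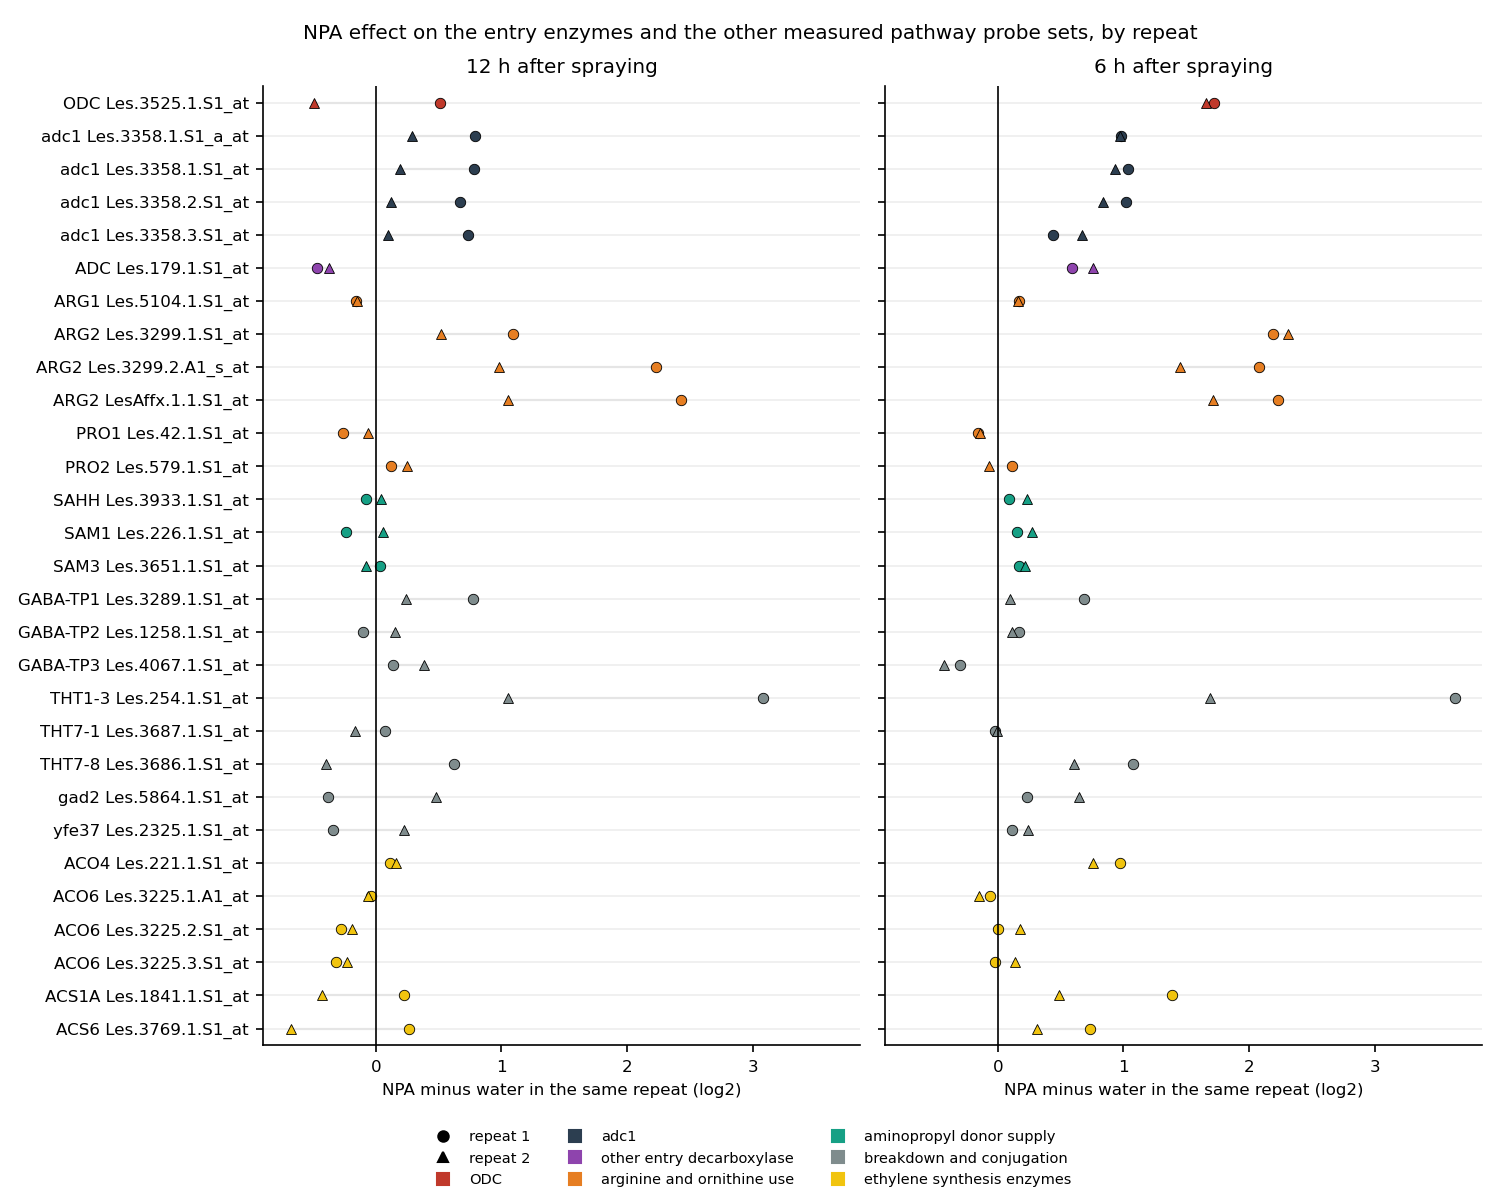
NPA minus water within a repeat (x axis, log2) for ODC, adc1 and the 24 other pathway probe sets (rows), at 12 h and at 6 h. Circles are repeat 1, triangles repeat 2, and colours are the gene lists. At 6 h both repeats of ODC lie at 1.66 or above and those of ARG2 at 1.45 or above. At 12 h the ODC points fall on either side of 0, while ARG2 and THT1-3 stay at 0.52 or above.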

How the data were processed

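Leaf RNA of 8 pools was hybridized to 1 array each. The deposited values are log2 expression values that the authors made with RMA, per the submitters' processing notes, and no version or setting of RMA is known here. The log2 scale was read off their range, 2.68 to 14.6, together with the use of RMA. Of 8488 probe sets 84 controls were left out and 8404 tested, of which 753 had a gene symbol. No detection calls were used, and the number of arrays limits the precision.

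A model with 1 mean per group was fitted to the 8 arrays together (limma 3.58.1, R 4.3.3, 4 residual and 2.55 prior degrees of freedom). The threshold was 0.05 on p adjusted by Benjamini-Hochberg over all 8404. The scripts were tested on simulated data. P-values reflect only how far these pools differ from one another. The genes, the lists and the naming rule were chosen with earlier results of these data known. For ODC and adc1 the planned tests of the 12 h effect and of 12 h against 6 h in NPA plants were run but are not reported, since they rest on values that chose these genes. The rule names all probe sets of ODC and adc1, the listed pathway genes, and the 5 probe sets with a symbol most correlated with each probe set of ODC and adc1.

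Arrays with the same replicate number shared their deviations from the group means (correlations from 0.316 to 0.596 over 6 pairs of groups). The numbers come from the sample titles, and the design text says that the experiment was done again in full. The alternatives tried were the repeat as a block, quantile normalization, median centring, only probe sets above the median level, a variance trend on intensity, robust shrinkage, array weights, only the arrays of 1 harvest, and leaving out each array. Gene symbols come from the platform annotation, and 739 of the 753 were found in a RefSeq table of assembly SLM_r2.1. Coordinates are left out because the array's own build is unknown here. Figures were drawn with matplotlib 3.10.9.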

Additional observations from a re-analysis of the deposited data

Results flagged for a closer look

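In 3 pathway genes every repeat moved one way at 12 h and the opposite way at 6 h, and the difference between the harvests did not pass the limma test in any of them. For ADC, the second arginine decarboxylase gene, NPA minus water was -0.47 and -0.37 at 12 h, against 0.59 and 0.76 at 6 h in repeats 1 and 2, a difference of -1.10 (SE 0.44, adjusted p = 0.365). For ARG1 it was -0.16 and -0.15 at 12 h, against 0.17 and 0.16 at 6 h, a difference of -0.32 (SE 0.47, adjusted p = 0.829). For GABA-TP3 it was 0.14 and 0.38 at 12 h, against -0.30 and -0.43 at 6 h, a difference of 0.63 (SE 0.25, adjusted p = 0.366). These 3 were picked out of 29 probe sets by their signs. With 2 arrays per group no array could be singled out by its distance from the rest of its group.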

How the results depend on the processing

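At 6 h the ODC difference ran from 1.66 to 1.73 and the adc1 differences from 0.395 to 1.095 on leaving out 1 array. The difference of Les.3358.1.S1_a_at, 0.975, moved by more than the spread of the repeats to 0.952 with quantile normalization and 0.955 with median centring, and ran from 0.855 to 1.095 without 1 array. At 12 h ODC lay between -0.385 and 0.405 without 1 array, at -0.385 when water 12 h replicate 1 was left out and -0.095 when it was NPA 12 h replicate 1. The change of effect of Les.3358.3.S1_at ran from -0.39 to 0.11 and was positive when NPA 6 h replicate 2 (0.02) or water 12 h replicate 2 (0.11) was left out.

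With the replicate block the calls added in water plants were Les.3358.1.S1_a_at (-0.635), Les.3358.1.S1_at (-0.52) and Les.3358.2.S1_at (-0.59). The block changed no other call of ODC or adc1 in water plants, and left the difference of Les.3358.3.S1_at in NPA plants, which is not read as a call, at -0.595. In water plants Les.3358.1.S1_at also passed with median centring (-0.56), and it and Les.3358.2.S1_at passed among probe sets above the median level (-0.52 and -0.59) and with array weights (-0.52 and -0.59). On leaving out 1 array, the change in NPA plants ran from -1.40 to -0.74 for Les.3358.1.S1_a_at and from -0.755 to -0.435 for Les.3358.3.S1_at. In water plants it ran from -0.75 to -0.52 for Les.3358.1.S1_a_at, from -0.815 to -0.365 for Les.3358.2.S1_at and from -0.785 to 0.005 for ODC. The cause of these changes was not tested.

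The count of pathway probe sets past the threshold at 6 h, 0, became 2 with the replicate block and ran from 0 to 1 without 1 array. It ran from 3 to 8 in NPA plants and from 1 to 5 in water plants between the harvests. The count of all probe sets past the threshold was 14 at 6 h and 108 with the block, 1 at 12 h and 0 with the block, 2183 and 3401 in NPA plants, and 1867 and 3144 in water plants. It ran over 0 to 22 at 6 h, 0 to 3 at 12 h, 925 to 1892 in NPA plants and 356 to 1740 in water plants on leaving out 1 array. Among probe sets above the median level, which leave out Les.3358.3.S1_at, it was 5 at 6 h, 0 at 12 h, 1281 and 1157, the number tested being smaller. At 6 h it was 9 with an intensity trend and 2 with the 6 h arrays alone. At 12 h it was 2 with an intensity trend and 0 with array weights or the 12 h arrays alone. For the change of effect, 0 became 2 with quantile normalization and 1 with an intensity trend or above the median level.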
